A study of Mus musculus with 12 samples.

Results

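The 10 genes described here are Trp53, which encodes the transcription factor p53, and 9 genes that p53 is known to switch on: Mdm2, Ccng1, Bax, Bbc3, Phlda3, Sesn2, Eda2r, Trp53inp1 and Perp. They were chosen by name, and each matched 1 of the 55487 gene identifiers. RNA was measured in 12 mouse libraries of polyadenylated RNA from the ventricular zone of the dorsal cortex, cut out by laser microdissection, with 3 libraries in each of 4 groups. The groups were E16.5 p18mKO2+, E16.5 p18mKO2-, E13.5 p18mKO2+ and E13.5 p18mKO2-, where E gives the embryonic day. The p18mKO2+ embryos carried a knock-in at the ROSA26 locus, in which removal of a loxP-flanked stop sequence lets p18 and the fluorescent protein mKO2 be made from 1 transcript. P18, encoded by Cdkn2c, inhibits the cyclin D-dependent kinases. The p18mKO2- samples are labelled as normal genotype. All 4 groups received tamoxifen, which was given by intraperitoneal injection to start Cre recombination. No source used here gives the Cre line, the day of injection or the strain, and no label says that replicates came from separate embryos. The p-values set the group differences against the spread between these libraries, part of which may be technical. They may therefore not carry over to other embryos. The series asks whether cyclin-dependent kinase inhibitors set when cortical progenitors turn from making neurons to making astrocytes.

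P53 is held at low levels by Mdm2, a ubiquitin ligase that marks it for degradation and is itself a p53 target. Stress such as DNA damage stabilises the protein, which then activates genes that stop the cell cycle, repair damage, restrain growth signals or start cell death. In the embryonic cortex, p53 is known for removing neural progenitors after mitotic or genomic errors. Its activity is set mainly on the protein, so the level of Trp53 RNA is not a measure of it. P53 binds DNA as a tetramer on a response element made of a pair of 10-base sites, here called decamers.

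Of the 10 genes, 8 had a promoter window in RefSeq (mouse build GRCm38.p6), each reaching from 250 bases before a transcript start to 50 bases after it. Bbc3 had several starts, so that there were 10 windows. A p53 decamer was found in 4 of the 10 windows, those of Trp53, Mdm2, Ccng1 and Bax. Among all 32851 windows of the same length, 2745 (8.4%) held one. The decamer consensus reads the same on both strands, so both were searched at once. The sites are printed because they show where letters that match the known p53 consensus lie in these promoters. Each line gives 30 bases, 5′ to 3′ on the strand of the gene, with the decamer in capitals.
Trp53: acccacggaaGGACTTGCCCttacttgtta
Mdm2: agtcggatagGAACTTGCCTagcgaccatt
Ccng1: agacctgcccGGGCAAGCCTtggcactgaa
Bax: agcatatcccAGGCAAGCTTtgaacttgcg
The Trp53 stretch is chr11:69580274-69580303 on the plus strand, with the decamer beginning 75 bases before the start. The Mdm2 stretch is chr10:117710925-117710954 on the minus strand, 186 bases before the start. The Ccng1 stretch is chr11:40755452-40755481 on the minus strand, 185 bases before the start. The Bax stretch is chr7:45467080-45467109 on the minus strand, 201 bases before the start, and it lies in an intron of the predicted gene Gm45808. No other GENCODE M21 gene covers these stretches. No window of Bbc3, Phlda3, Sesn2 or Eda2r held a decamer, and no window of the 10 held a pair with at most 13 bases between them. Trp53inp1 and Perp had no entry. A match describes letters in this window and says nothing of binding.

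Levels between genes are given as TPM, the deposited unit that takes transcript length and library size into account. The 10 genes fell into a high and a low group. The mean over the 12 libraries was 120.1 TPM for Trp53, 111 for Bax, 58.9 for Mdm2, 39.7 for Trp53inp1 and 22.2 for Ccng1. The other 5 genes averaged 8.54 TPM for Bbc3, 5.33 for Phlda3, 4.13 for Sesn2, 1.91 for Perp and 1.76 for Eda2r. In GRCm38 they lie at chr11:69580359-69591873 (Trp53), chr10:117688875-117710758 (Mdm2), chr11:40748552-40755311 (Ccng1), chr7:45461697-45466898 (Bax), chr7:16308393-16318205 (Bbc3), chr1:135766119-135769136 (Phlda3), chr4:132492032-132510501 (Sesn2), chrX:97333840-97377216 (Eda2r), chr4:11156431-11174379 (Trp53inp1) and chr10:18845020-18857073 (Perp). The values are for whole genes.

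**Figure D1:**
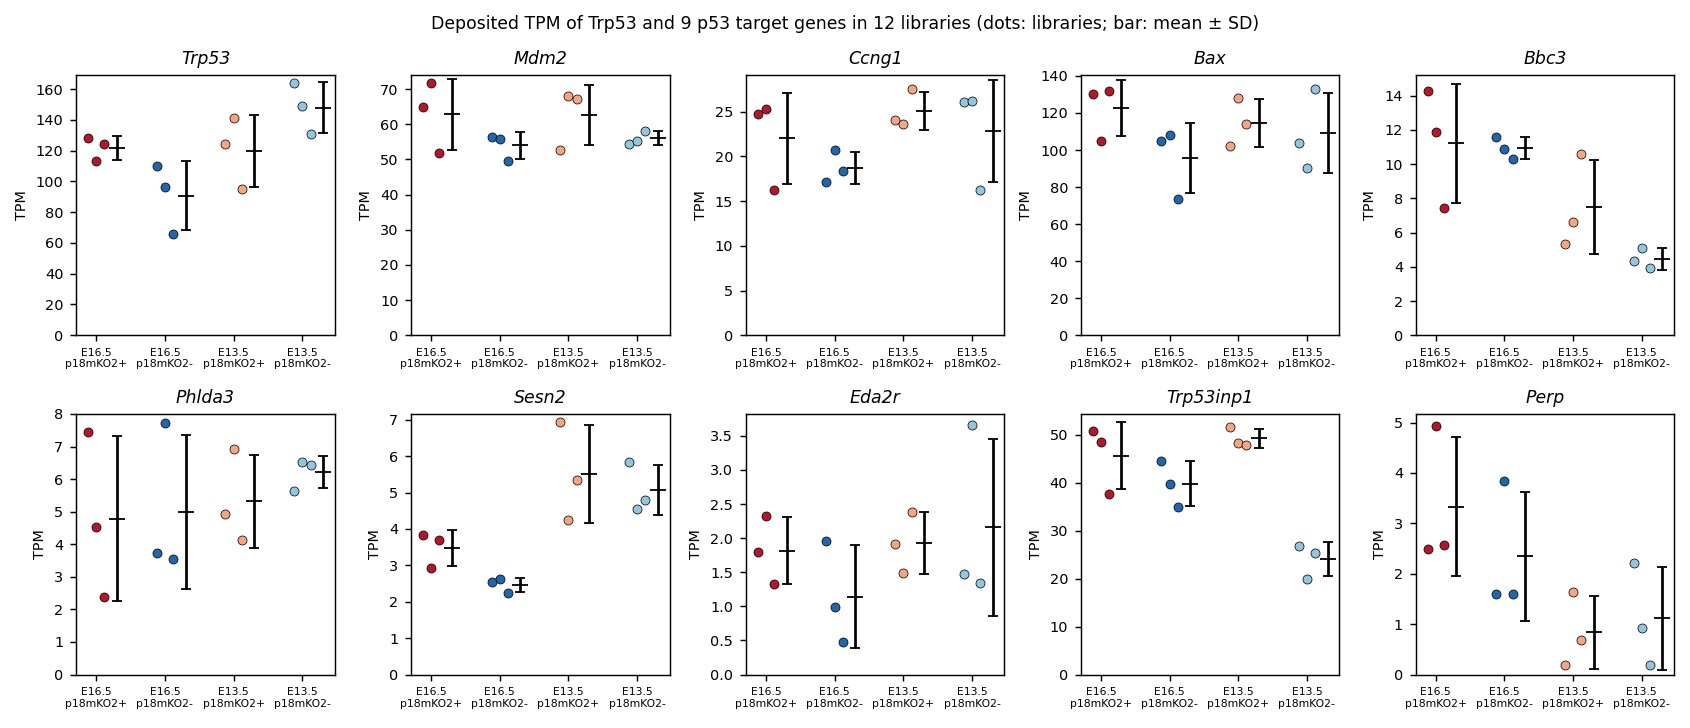
Deposited TPM (linear axis from 0) of Trp53 and 9 p53 target genes, 1 dot a library, with the mean ± SD of each group beside the dots (n = 3). Trp53inp1 lay between 20.0 and 26.7 TPM in the E13.5 p18mKO2- libraries and between 35.0 and 51.5 TPM in the other 9 libraries.

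The libraries held 17101971 to 21837088 estimated counts. Cdkn2c was not called between p18mKO2+ and p18mKO2- libraries at E13.5 (log2 fold change 0.14 ± 0.26 SE, adjusted p = 0.798) or E16.5 (0.32 ± 0.26, adjusted p = 1) by edgeR's quasi-likelihood test. In TPM its groups did not overlap. It had 27.7, 32.6 and 30.2 TPM in E13.5 p18mKO2+ libraries, against 26.5, 21.4 and 16.1 in E13.5 p18mKO2- libraries. At E16.5 it had 38.2, 43.5 and 32.1 TPM in p18mKO2+ libraries, against 19.6, 28.7 and 13.7 in p18mKO2- libraries. On the TPM scale the median log2 fold change of all genes was itself 0.14 at E13.5 and 0.23 at E16.5. Ribosomal RNA (CT010467.1) took 1.79 to 3.97% of counts in E16.5 p18mKO2+ libraries, 6.28 to 13.6% in E16.5 p18mKO2-, 2.81 to 6.64% in E13.5 p18mKO2+ and 5.32 to 8.80% in E13.5 p18mKO2- libraries. Replicate 3 of E16.5 p18mKO2+ and replicate 3 of E13.5 p18mKO2+ held both Xist and Y-linked transcripts. The 3 E13.5 p18mKO2- libraries held Xist without Y-linked transcripts. In E13.5 p18mKO2+, 1 library held Xist alone and 1 held Y-linked transcripts with little Xist. In E16.5 p18mKO2+, 2 libraries held Y-linked transcripts with little Xist and 0 held Xist alone. In E16.5 p18mKO2-, 2 held Xist alone and 1 held Y-linked transcripts with little Xist. Without the 2 libraries with Xist beside Y-linked transcripts, 796 genes were called in the p18 comparison at E13.5, against 1810 with them. Leaving out 1 library at a time gave 927 calls (without replicate 1 of E13.5 p18mKO2+) to 2383 (without replicate 3 of E16.5 p18mKO2-). Without replicate 3 of E13.5 p18mKO2+ alone there were 933. The cause of these changes in number was not tested. Calls named below that are lost without the 2 libraries with Xist beside Y-linked transcripts are given as such.

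At E13.5, 1 of the 10 p53 genes was called between p18mKO2+ and p18mKO2- tissue. Trp53inp1, whose protein takes part in stress-induced autophagy and cell death, was 1.79-fold higher. No gene of the 10 was called lower, though 7 had a negative log2 fold change. At an unadjusted p under 0.05 (edgeR) there were 2 of the 10, Trp53inp1 and Trp53. The threshold for a call was an adjusted p of 0.05 (Benjamini-Hochberg) over the 16798 genes tested, of which 10.8% passed in this comparison, 7.29% higher and 3.49% lower. On the TPM scale 930 genes were called higher and 133 lower, against 1224 and 586 here. The 10 genes had a median log2 fold change of -0.08, against 0.01 for all genes tested.

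Within-gene values are given below as CPM, counts divided by the scaled library size with no correction for length. Trp53inp1 had 159.9, 155 and 133 CPM in E13.5 p18mKO2+ libraries, against 90.7, 68.6 and 91.0 CPM in E13.5 p18mKO2- libraries. Every p18mKO2+ library lay above every p18mKO2- library, which was the case in either direction for 30.7% of genes tested. The log2 fold change was 0.84 ± 0.13 SE (adjusted p = 0.00182, edgeR quasi-likelihood). It stayed called in 22 of 22 alternative analyses, between 0.72 and 1.01. Leaving out the 2 libraries with Xist beside Y-linked transcripts gave 0.92.

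Trp53 itself had 119.6, 139 and 87.4 CPM in E13.5 p18mKO2+ libraries, against 174, 157 and 151 CPM in E13.5 p18mKO2- libraries. The groups did not overlap in CPM, with the p18mKO2+ libraries lower, but they did overlap in TPM. The log2 fold change of -0.48 ± 0.18 SE did not pass (adjusted p = 0.104, edgeR). Its inhibitor Mdm2 averaged 88.2 ± 2.58 CPM in p18mKO2+ libraries, against 88.1 ± 8.18 CPM in p18mKO2- libraries (SD, n = 3 each), and was not called. Mdm2 had the smallest SE of the 10, 0.12 on the log2 scale.

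The remaining targets were not called at E13.5. Among those that act on mitochondrial cell death, Bbc3 (PUMA) averaged 6.38 ± 2.04 CPM in p18mKO2+ libraries, against 4.73 ± 0.679 CPM in p18mKO2- libraries (SD, n = 3 each), a log2 fold change of 0.43 ± 0.27 SE. The pore-forming Bax had -0.10 ± 0.20. Ccng1, a cyclin that recruits a phosphatase to Mdm2, had -0.03 ± 0.18. Phlda3, which competes with AKT for membrane lipids, had -0.39 ± 0.38, and Sesn2, which restrains mTORC1 under stress, had -0.05 ± 0.24. Eda2r, a receptor of the TNF receptor family for ectodysplasin A2, had -0.27 ± 0.35. Perp, a membrane protein of desmosomes, had -0.54 ± 0.80, over 4 to 92 estimated counts a library. These genes had adjusted p between 0.347 and 0.941 (edgeR quasi-likelihood).

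**Figure D2:**
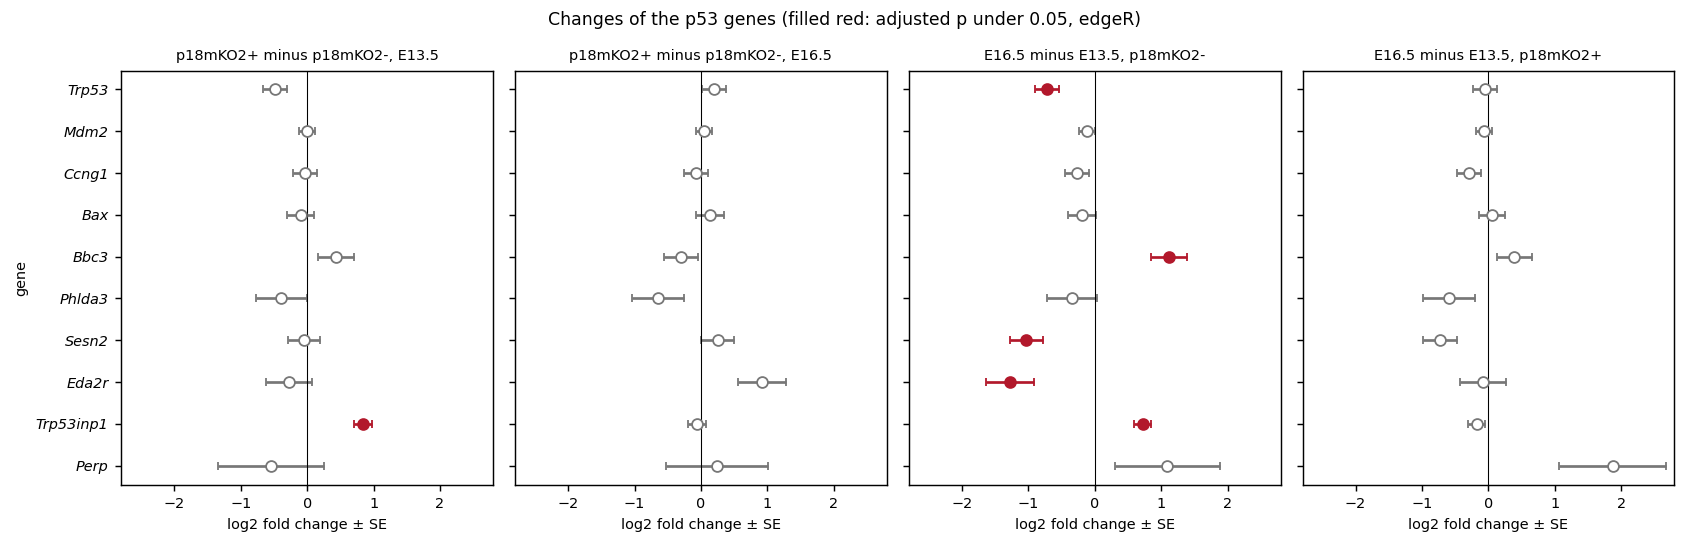
Log2 fold changes ± SE (edgeR quasi-likelihood, n = 3 libraries a group) of the 10 genes, in a panel for each of 4 comparisons, with called genes in filled red. Trp53inp1 was called in the p18 comparison at E13.5, no gene in that at E16.5, 5 genes in the stage comparison of p18mKO2- tissue, and none in that of p18mKO2+ tissue.

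At E16.5 none of the 10 genes was called between p18mKO2+ and p18mKO2- tissue. By edgeR 0% of the 16798 genes were called, against 16 genes by DESeq2 and 2 by limma-voom. EdgeR put 426 genes at an unadjusted p under 0.05. Of the 10 genes, 1 reached that unadjusted level, and 0 were called by DESeq2 or limma-voom. It was Eda2r, with 4.13, 5.01 and 3.87 CPM in E16.5 p18mKO2+ libraries, against 2.39, 2.85 and 1.62 CPM in E16.5 p18mKO2- libraries. The p18mKO2+ libraries all lay above the p18mKO2- libraries in CPM, and groups stood apart in either direction in 7.95% of genes tested. In TPM Eda2r overlapped, at 1.33 to 2.32 in E16.5 p18mKO2+ and 0.48 to 1.96 TPM in E16.5 p18mKO2- libraries. Its log2 fold change was 0.92 ± 0.36 SE (adjusted p = 1, edgeR).

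Trp53inp1 was close between the groups at this stage. It had 137, 132 and 125 CPM in E16.5 p18mKO2+ libraries, against 139.9, 130.4 and 141 CPM in E16.5 p18mKO2- libraries, with overlapping values. The log2 fold change was -0.06 ± 0.13 SE. Trp53 had 0.19 ± 0.18, Mdm2 0.05 ± 0.12 and Ccng1 -0.07 ± 0.18. Of the cell death genes, Bax had 0.14 ± 0.21, Bbc3 -0.30 ± 0.26 and Perp 0.24 ± 0.77. Phlda3 had -0.65 ± 0.39 and Sesn2 0.25 ± 0.25. The median of the 10 was 0.10, against -0.01 for all genes tested.

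Whether the p18 comparison differed between the stages was tested as an interaction, the log2 fold change at E16.5 minus that at E13.5. Trp53inp1 was the 1 gene of the 10 called, at -0.90 ± 0.19 SE (adjusted p = 0.0226, edgeR), where 2.7% of genes tested were called and 2.4% were called lower. The call was lost in 7 of 21 alternative analyses, while the value stayed between -0.97 and -0.78. It was lost on the TPM scale (-0.82, adjusted p = 0.185, limma), without replicate 1, 2 or 3 of E16.5 p18mKO2+, replicate 1 of E13.5 p18mKO2+ or replicate 2 of E13.5 p18mKO2- (adjusted p 0.0526 to 0.0897), and without both libraries that had Xist beside Y-linked transcripts (-0.93, adjusted p = 0.0745). Trp53 had 0.67 ± 0.25 (adjusted p = 0.19) and Eda2r 1.19 ± 0.50 (adjusted p = 0.251), neither called by edgeR.

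The stage comparison in p18mKO2- tissue held most of the calls. Between E16.5 and E13.5, Trp53inp1 and the death gene Bbc3 rose, while Trp53, Sesn2 and Eda2r fell. With 5 of the 10 genes called, the share stood beside 29.8% of all genes tested. Higher calls made up 16.4% and lower calls 13.4% of those genes. The median of the 10 was -0.22, against -0.02 for all genes tested. This comparison shares its E13.5 p18mKO2- libraries with the p18 comparison at E13.5, and its E16.5 p18mKO2- libraries with the one at E16.5.

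Trp53 had 113, 98.4 and 81.4 CPM in E16.5 p18mKO2- libraries, against 174, 157 and 151 CPM in E13.5 p18mKO2- libraries. The groups did not overlap, and E16.5 was the lower, a pattern in either direction in 40.4% of genes tested. The log2 fold change was -0.72 ± 0.18 SE, a ratio of 0.607 (adjusted p = 0.00751, edgeR). Mdm2 was not called, at 81.0 ± 10.1 CPM in E16.5 p18mKO2- and 88.1 ± 8.18 CPM in E13.5 p18mKO2- libraries (SD, n = 3 each) and a log2 fold change of -0.12 ± 0.12 SE.

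Bbc3 had 9.09, 10.3 and 11.5 CPM in E16.5 p18mKO2- libraries, against 4.57, 5.48 and 4.15 CPM in E13.5 p18mKO2- libraries. All E16.5 libraries lay above all E13.5 libraries. Bbc3 was 2.17-fold higher (log2 fold change 1.12 ± 0.27 SE, adjusted p = 0.0063, edgeR). Its partner in mitochondrial death Bax had -0.19 ± 0.21 and was not called.

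Sesn2 had 5.22, 5.44 and 5.68 CPM in E16.5 p18mKO2- libraries, against 12.5, 9.82 and 11.1 CPM in E13.5 p18mKO2- libraries. The values lay well apart, with the E16.5 libraries within a narrow band. The ratio was 0.49 (log2 fold change -1.03 ± 0.25 SE, adjusted p = 0.00659, edgeR).

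Eda2r had 2.39, 2.85 and 1.62 CPM in E16.5 p18mKO2- libraries, against 4.15, 8.14 and 4.27 CPM in E13.5 p18mKO2- libraries. The groups did not overlap in CPM, and replicate 2 of E13.5 p18mKO2- was the highest of all 12 libraries. The log2 fold change was -1.27 ± 0.36 SE (adjusted p = 0.0163, edgeR). The call was lost without that library (-0.87, adjusted p = 0.0924) and without replicate 3 of E16.5 p18mKO2- (-1.06, adjusted p = 0.0585). In TPM the groups overlapped, and the change was -0.54 (adjusted p = 0.266, limma). The transcript length deposited for Eda2r ranged from 2127 to 4752 bases between libraries. TPM is scaled to the effective length, a separate deposited value.

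Trp53inp1 had 139.9, 130.4 and 141 CPM in E16.5 p18mKO2- libraries, against 90.7, 68.6 and 91.0 CPM in E13.5 p18mKO2- libraries. It was 1.64-fold higher, with no overlap (log2 fold change 0.72 ± 0.13 SE, adjusted p = 0.00113, edgeR). The calls of Trp53, Bbc3, Sesn2 and Trp53inp1 were kept in 22 of 22 alternative analyses. Ccng1 (-0.26 ± 0.18), Phlda3 (-0.34 ± 0.38) and Perp (1.09 ± 0.79) were not called.

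In p18mKO2+ tissue, whose libraries also enter the p18 comparisons, none of the 10 genes was called between E16.5 and E13.5, where 1.64% of genes tested were called, 1.08% higher and 0.554% lower (182 and 93 genes, against 141 and 14 on the TPM scale). At an unadjusted p under 0.05 there were 2 of the 10, Sesn2 and Perp. DESeq2 and limma-voom called 0 and 0. Sesn2 had 6.59, 5.01 and 7.79 CPM in E16.5 p18mKO2+ libraries, against 13.6, 8.64 and 9.94 CPM in E13.5 p18mKO2+ libraries. The E16.5 values were all the lower ones, and the log2 fold change was -0.73 ± 0.25 SE (adjusted p = 0.164, edgeR). Perp had 2.32, 4.56 and 2.90 CPM in E16.5 p18mKO2+ libraries, against 0.194, 1.78 and 0.683 CPM in E13.5 p18mKO2+ libraries. The E16.5 libraries were all higher, on few reads, at 1.87 ± 0.81 (adjusted p = 0.295, edgeR). Ccng1 also did not overlap (-0.29 ± 0.18, adjusted p = 0.496), and groups stood apart in 26.6% of genes tested. Trp53inp1, at 131 ± 6.19 CPM in E16.5 p18mKO2+ and 149 ± 14.4 CPM in E13.5 p18mKO2+ libraries (SD, n = 3 each), had -0.18 ± 0.13. Trp53 had -0.05 ± 0.18 and Bbc3 0.39 ± 0.26, and the median of the 10 was -0.07, against -0.03 for all genes tested.

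Markers of cell types moved with these groups. The 8 markers of neurons summed to 3217 to 3760.2 TPM in E16.5 p18mKO2+, 2836 to 3079 in E16.5 p18mKO2-, 1889 to 2936 in E13.5 p18mKO2+ and 868 to 1190.0 TPM in E13.5 p18mKO2- libraries. Here and below, rose and fell mean called higher and called lower by edgeR. Of the 8, 6 rose in E13.5 p18mKO2+ against p18mKO2- tissue, as Trp53inp1 did, and all 8 had positive log2 fold changes. With stage in p18mKO2- tissue 8 rose. The 8 markers of cycling cells summed to 797 to 997 TPM in E16.5 p18mKO2+, 463 to 891 in E16.5 p18mKO2-, 1037 to 1401 in E13.5 p18mKO2+ and 1797 to 1988 TPM in E13.5 p18mKO2- libraries. Of these, 6 fell in E13.5 p18mKO2+ against p18mKO2- tissue, where all 8 had negative log2 fold changes. With stage in p18mKO2- tissue 8 fell, as Trp53 did. Of all genes tested, 7.29% were called higher and 3.49% lower with p18 at E13.5. With stage in p18mKO2- tissue the shares were 16.4% and 13.4%. The part of these markers in the results on the p53 genes was not tested. In bulk tissue, fewer cells of a type and less RNA per cell cannot be told apart.

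**Figure D3:**
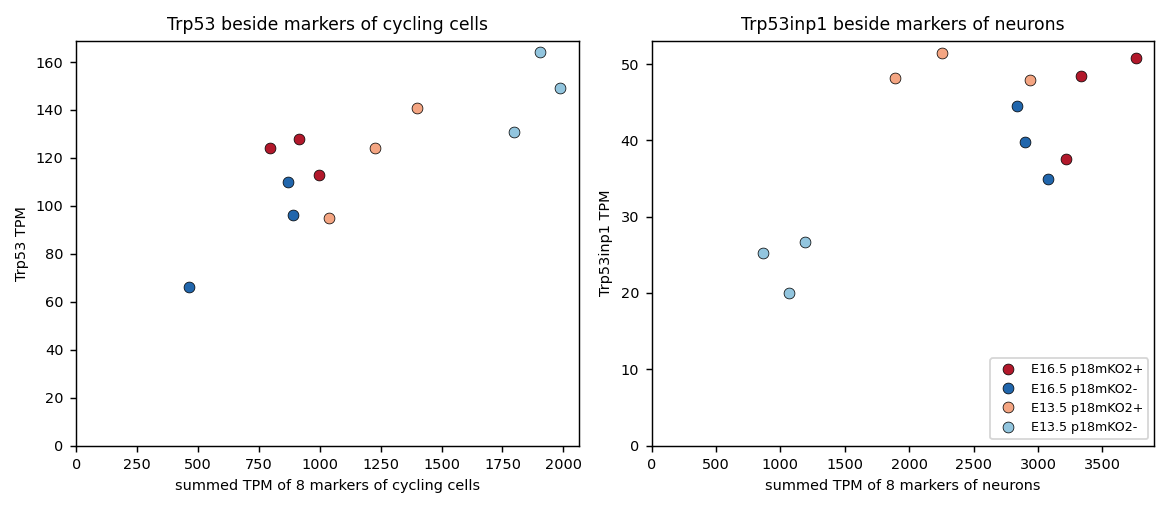
Trp53 against the summed TPM of 8 markers of cycling cells (left) and Trp53inp1 against the summed TPM of 8 markers of neurons (right), 1 dot a library, in TPM on linear axes. The E13.5 p18mKO2- libraries stand apart, with 1797 to 1988 TPM of cycling markers and 868 to 1190.0 TPM of neuron markers.

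For radial glia, the 7 markers that define the ventricular zone summed to 2075 to 2389 TPM in E16.5 p18mKO2+, 1382 to 2309 in E16.5 p18mKO2-, 1833 to 2357 in E13.5 p18mKO2+ and 2327 to 2713 TPM in E13.5 p18mKO2- libraries. None of them was at 0 in any group. Of the 7, 3 (Vim, Sox2 and Hes5) fell in E13.5 p18mKO2+ against p18mKO2- tissue, with a median log2 fold change of -0.59 for the list. Another 2 had positive log2 fold changes and were not called. These were Fabp7, at 372 CPM in E13.5 p18mKO2+ and 347 in E13.5 p18mKO2- libraries, and Slc1a3, at 135 and 106 CPM. With stage in p18mKO2- tissue 5 of the 7 fell and 1 rose. Markers of other tissue were present too, and some moved with p18. The 6 of ventral telencephalon summed to 192 to 349 TPM in E16.5 p18mKO2+ and 87.7 to 102 TPM in E16.5 p18mKO2- libraries, and to 287 to 407 TPM in E13.5 p18mKO2+ and 79.5 to 221 TPM in E13.5 p18mKO2- libraries. Of these, 1 (Gad1) was called higher with p18 at E13.5 and 0 at E16.5 by edgeR, with 5 and 6 of the 6 at an unadjusted p under 0.05. The 6 of endothelium and pericytes summed to 80.5 to 91.3 TPM in E13.5 p18mKO2+ and 41.6 to 63.5 TPM in E13.5 p18mKO2- libraries, where 2 (Rgs5 and Cldn5) rose. Of 7 erythroid markers, 4 had negative and 3 had positive log2 fold changes with p18 at E13.5. Only 2 of the 7 fell in E13.5 p18mKO2+ tissue, and both fell with stage in p18mKO2+ and in p18mKO2- tissue. These were the embryonic globins Hbb-y, at 144 ± 116 CPM in E13.5 p18mKO2+ and 546 ± 17.8 CPM in E13.5 p18mKO2- libraries, and Hba-x, at 40.4 ± 30.6 CPM in E13.5 p18mKO2+ and 159.8 ± 13.7 CPM in E13.5 p18mKO2- libraries (SD, n = 3 each). Like the other called markers named here, they were singled out after their values were seen. They moved in the comparison in which Trp53inp1 rose, and their part in that result was not tested.

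The 4 markers of choroid plexus summed to 481 to 2676 TPM in E16.5 p18mKO2+ and 223 to 709 in E16.5 p18mKO2- libraries, and to 30.9 to 1039.5 TPM in E13.5 p18mKO2+ and 17.8 to 505 TPM in E13.5 p18mKO2- libraries. For Perp, a gene of stratified epithelia, the 5 surface epithelium markers summed to 2.19 to 8.29 TPM in E16.5 p18mKO2+, 1.83 to 2.28 in E16.5 p18mKO2-, 1.27 to 7.70 in E13.5 p18mKO2+ and 1.76 to 12 TPM in E13.5 p18mKO2- libraries. Krt8, Krt18 and Epcam were detected in every group, while Krt5 and Krt14 were at 0 in all 4.

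A further 28 known p53 targets were examined, of which 26 passed the filter on low counts; Dram1 and Gdf15 did not. At E13.5, 3 rose and 2 fell in p18mKO2+ tissue, with a median log2 fold change of 0.01, the same as for all genes. The 5 calls among 26 stand beside 7.29% of all genes called higher and 3.49% called lower. Ak1, an adenylate kinase, rose by 0.93 ± 0.18 SE (adjusted p = 0.00511). Plk2, a polo-like kinase, had 1.21 ± 0.27 (adjusted p = 0.0125), and Sesn1, which like Sesn2 restrains mTORC1, had 0.58 ± 0.15 (adjusted p = 0.0255). The genes that fell were Pidd1, a scaffold for caspase-2 activation, at -1.05 ± 0.25 (adjusted p = 0.0161), and Psrc1, a spindle protein, at -0.90 ± 0.22 (adjusted p = 0.0198, all by edgeR). The cell cycle inhibitor Cdkn1a (p21), among the best known p53 targets, had 11.1 ± 1.66 TPM in E13.5 p18mKO2+ libraries, against 15.0 ± 7.20 TPM in E13.5 p18mKO2- libraries (SD, n = 3 each) and was not called (-0.57 ± 0.32, adjusted p = 0.291). The call of Ak1 was kept in 22 of 22 alternatives. Plk2, Pidd1 and Psrc1 lost their calls without replicate 3 of E13.5 p18mKO2-, Pidd1 and Psrc1 also without replicate 1 of E13.5 p18mKO2+, and Psrc1 also without replicate 3 of that group. Without the 2 libraries with Xist beside Y-linked transcripts, 3 of the 5 were called, Plk2 and Psrc1 having lost their calls. Sesn1 lost its call without replicate 1 or 2 of E16.5 p18mKO2+, E13.5 p18mKO2+ or E13.5 p18mKO2-, and with only the 6 libraries compared. On the TPM scale Pidd1 and Psrc1 lost their calls (limma). With a covariate for ribosomal RNA, Plk2, Pidd1 and Psrc1 lost theirs. With a covariate for Y-linked transcripts, Plk2 and Sesn1 did. At E16.5 none of the 26 was called, with 1 at an unadjusted p under 0.05.

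With stage in p18mKO2- tissue, 4 of those 26 targets rose and 5 fell, with a median of -0.14, beside 16.4% of all genes called higher and 13.4% called lower. Plk2 rose by 2.07 ± 0.28, Ak1 by 1.27 ± 0.18, Sesn1 by 0.70 ± 0.15 and Rrm2b, a ribonucleotide reductase subunit, by 0.64 ± 0.19 on the log2 scale. Psrc1 (-1.83 ± 0.23), Pidd1 (-1.68 ± 0.25), Cdkn1a (-1.66 ± 0.33) and Btg2 (-0.90 ± 0.19), an antiproliferative gene that also marks intermediate progenitors, fell, as did 1 more. Adjusted p for these named genes ran from 5.6e-05 to 0.0213 (edgeR). Rrm2b lost its call without replicate 2 or 3 of either p18mKO2- group. In p18mKO2+ tissue 0 of the 26 were called by edgeR between the stages, with 6 at an unadjusted p under 0.05; without the 2 libraries with Xist beside Y-linked transcripts, 1 was called, Plk2.

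Of 23 regulators, relatives and cofactors of p53, 21 passed the filter; Trp63 and Cdkn2a did not. At E13.5, Ppp1r13b (ASPP1), which directs p53 to cell death genes, rose by 1.46 ± 0.30 in p18mKO2+ tissue (adjusted p = 0.00685). The checkpoint kinases Chek1 (-0.87 ± 0.15, adjusted p = 0.00341) and Chek2 (-0.97 ± 0.23, adjusted p = 0.0168), which phosphorylate p53 after DNA damage, fell (edgeR). The call of Chek2 was lost without replicate 1 or 3 of E13.5 p18mKO2+ or replicate 3 of E13.5 p18mKO2-, and also without the 2 libraries with Xist beside Y-linked transcripts. On the TPM scale Ppp1r13b stayed called, while Chek1 and Chek2 lost their calls (limma). The calls of Chek1 and Ppp1r13b were each kept in 21 of 22 alternative analyses. The 1 rise and 2 falls among 21 stand beside 7.29% of all genes called higher and 3.49% called lower, and the list's median was -0.10. With stage in p18mKO2- tissue 1 rose, again Ppp1r13b (1.97 ± 0.30), and 7 fell, led by Chek1 (-1.96 ± 0.16), Usp28 (-0.88 ± 0.13), Chek2 (-1.18 ± 0.23) and Ppp1r13l, an inhibitor of p53, with a median of -0.15. Of all genes 16.4% were called higher and 13.4% lower in this comparison. Ppp1r13l lost its call without replicate 3 of E16.5 p18mKO2-. In p18mKO2+ tissue Chek1 fell with stage (-0.89 ± 0.16, adjusted p = 0.0113, edgeR), a call lost without replicate 1 of E16.5 p18mKO2+ or replicate 2 of E13.5 p18mKO2+. Mdm4, the other main inhibitor of p53, was called in none of the 5 comparisons.

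**Figure D4:**
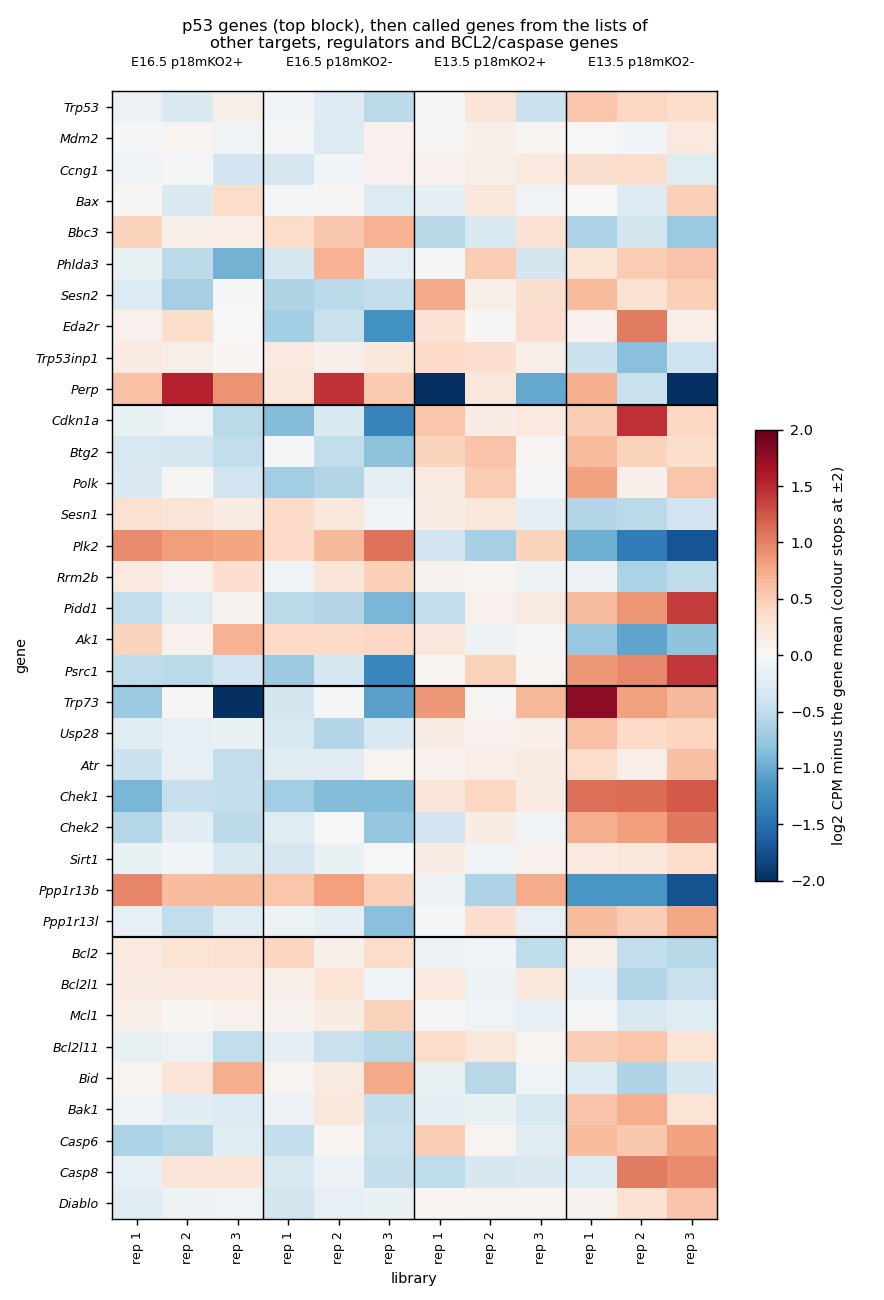
Log2 CPM of the p53 genes and of called genes of the other lists in each of the 12 libraries, minus each gene's mean over the 12, with the colour stopping at ±2. Within the top block, Trp53inp1 is lowest in the 3 E13.5 p18mKO2- libraries, and Perp has the widest spread.

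Of 21 BCL2 family and caspase genes, 20 passed the filter, and Bik did not. At E13.5, 2 of the 20 rose and 1 fell in p18mKO2+ tissue, with a median of -0.05, beside 7.29% of all genes called higher and 3.49% called lower. Without the 2 libraries with Xist beside Y-linked transcripts, 0 of the 20 were called by edgeR. The survival gene Bcl2l1 (0.50 ± 0.14, adjusted p = 0.0417) rose, and Bak1 (-0.75 ± 0.19, adjusted p = 0.0225), a pore-former like Bax, fell (edgeR). Leaving out single libraries ended the call of Bcl2l1 for 7 and of Bak1 for 4 of the 12. With stage in p18mKO2- tissue 5 rose and 5 fell, with a median of -0.03, beside 16.4% of all genes called higher and 13.4% called lower. Bcl2l1 rose by 0.50 ± 0.15, Mcl1 by 0.43 ± 0.13 and Bcl2 by 0.58 ± 0.19. Bcl2l11 (BIM, -0.84 ± 0.18), Casp6 (-0.94 ± 0.22), Diablo (-0.55 ± 0.14) and Bak1 (-0.63 ± 0.19) fell. The survival genes Bcl2, Bcl2l1 and Mcl1 rose alongside the death gene Bbc3. The 5 that rose were not all survival genes. They included the death gene Bid, whose call was kept in 9 of 22 alternative analyses. Single libraries ended the calls of Bcl2 (4 libraries), Bak1 (4), Bcl2l1 (3) and Mcl1 (3). EdgeR called none of the 20 in the p18 comparison at E16.5, in the difference between stages or with stage in p18mKO2+ tissue, with 0, 4 and 5 at an unadjusted p under 0.05 in these 3 tests.

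**Figure D5:**
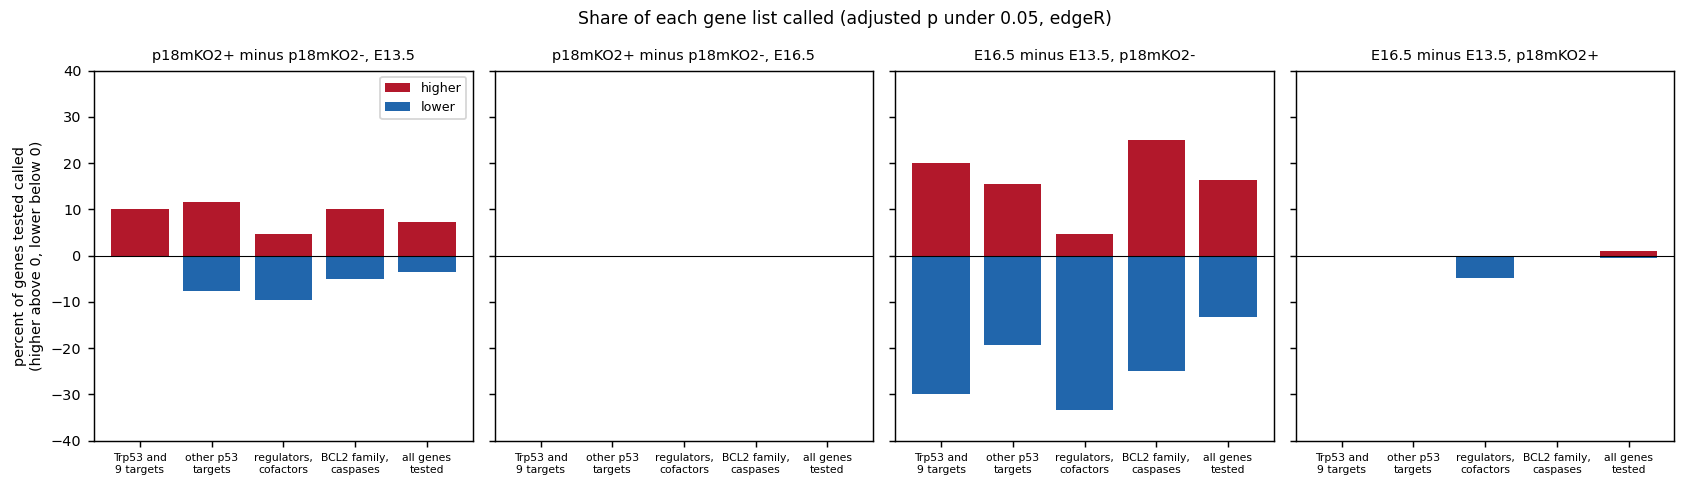
Percent of genes tested that were called higher (above 0) or lower (below 0) in 4 comparisons, for the 10 p53 genes, the 3 other lists and all genes tested (edgeR, adjusted p under 0.05). In the stage comparison of p18mKO2- tissue, all lists have calls in both directions, beside 16.4% higher and 13.4% lower of all genes.

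The genes whose pattern over the 12 libraries was most like that of Trp53 included Tex10 and Eif4a3, among 10235 genes compared. Their root mean square difference from Trp53 in centred log2 CPM was 0.115 and 0.118, where the spread of Trp53 itself was 0.332. For Mdm2 they were Msl1 (0.06), Paf1 (0.075) and Ddx42 (0.081), beside a spread of 0.112, the pattern being nearly flat. For Ccng1 they were Tlk1 (0.121), Polr2m (0.126) and Dcbld1 (0.126), beside 0.228. No p53 gene could be chosen, since the 10 were left out of the search.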

How the data were processed

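Per the submitters' processing notes, reads were handled with cutadapt 3.4, STAR 2.7.2b and RSEM 1.2.31 on mouse GRCm38 (mm10). No source used here gives the annotation release or the strand setting; the kit is directional, per the labels' protocols. Per the file headers, the authors deposited an expected count per gene, in which RSEM shares multi-mapped reads, and TPM, which is scaled to effective length and to a fixed total. Effective length and posterior SD columns are also the authors', per the file headers.

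Expected counts were rounded. EdgeR 4.0.16 (R 4.3.3) tested 16798 genes kept by filterByExpr, with TMM scaling, a quasi-likelihood fit of all 12 libraries with 1 mean per group (8 residual degrees of freedom, common biological coefficient of variation 0.311), and Benjamini-Hochberg adjustment over all genes tested at 0.05. Each SE was obtained from the log2 fold change and its F statistic (size of the change over the root of F). All 10 p53 genes passed the filter. The posterior SD of the count was 0 reads for 9 of them and at most 0.66 reads for Bax, 12.2% of whose exon bases are shared with Gm45808 (0.383 TPM). Log2 CPM used a prior count of 2. The steps were tested on simulated data.

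The 10 genes, the other lists and the marker lists were chosen with earlier results of these data known. From each other list, up to 4 called genes per direction with the smallest p were named; up to 3 of the most alike genes were named for Trp53, Mdm2 and Ccng1. Some genes that the rule picks are not reported here. Alternatives were RLE scaling, DESeq2 1.42.0, limma-voom 3.58.1, no filter, limma on log2(TPM + 1), a block for replicate number, a fit of only the 6 libraries compared, and leaving out libraries. Covariates for ribosomal RNA and Y-linked transcripts were added after seeing the data.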

Additional observations from a re-analysis of the deposited data

Results flagged for a closer look

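The lists searched held 10 p53 genes, 26 other targets, 21 regulators and 20 BCL2 family and caspase genes that were tested. In 3 of these genes the p18 comparison differed between the stages by the test of the difference itself (E16.5 log2 fold change minus E13.5 log2 fold change, edgeR). Of all genes tested, 2.7% were called in that test. Marker lists were left out of the count of 3, though 3 of 8 neuron markers, 2 of 7 of radial glia and 1 of 6 of endothelium and pericytes were called. Trp53inp1 had -0.90, with group means of 131 CPM in E16.5 p18mKO2+, 137 in E16.5 p18mKO2-, 149 in E13.5 p18mKO2+ and 83.4 CPM in E13.5 p18mKO2- libraries. Pidd1 had 1.53 (adjusted p = 0.0362), with 13.1 CPM in E16.5 p18mKO2+, 9.45 in E16.5 p18mKO2-, 14.6 in E13.5 p18mKO2+ and 30.2 CPM in E13.5 p18mKO2- libraries. This call was lost on leaving out any 1 of 8 libraries, namely all but replicate 1 of E16.5 p18mKO2-, replicates 2 and 3 of E13.5 p18mKO2+ and replicate 1 of E13.5 p18mKO2-. Chek1 had 1.08 (adjusted p = 0.0205), with 17.7 CPM in E16.5 p18mKO2+, 15.4 in E16.5 p18mKO2-, 32.8 in E13.5 p18mKO2+ and 59.9 CPM in E13.5 p18mKO2- libraries, a call lost without replicate 2 or 3 of E16.5 p18mKO2+, replicate 2 of E16.5 p18mKO2- or replicate 1 of E13.5 p18mKO2+. In each of the 3, the E13.5 p18mKO2- group had the extreme mean, and the comparisons share its libraries. Without the 2 libraries with Xist beside Y-linked transcripts, none of the 3 was called by edgeR.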

How the results depend on the processing

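Calls of the p53 genes in the p18 comparisons and in both stage comparisons stayed within 1.5 times of their number in all alternatives. In the difference between stages, 1 gene was called, 0 with limma on log2(TPM + 1), 0 without the 2 libraries with Xist beside Y-linked transcripts, 2 with the ribosomal RNA covariate (Trp53 joining at 1.05, adjusted p = 0.0274) and 0 to 1 when single libraries were left out; this difference could not be fitted on 6 libraries. All-gene calls over the alternatives were 740 to 2666 (p18 at E13.5), 0 to 81 (p18 at E16.5), 50 to 1168 (difference), 3626 to 5700 (stage, p18mKO2-) and 76 to 970 (stage, p18mKO2+). Calls of the other targets, the regulators and the BCL2 and caspase genes were 2 to 6, 1 to 4 and 0 to 5 for p18 at E13.5, against 5, 3 and 3 in the report; 0 to 3, 0 to 3 and 0 to 1 for the difference, against 1, 1 and 0; 8 to 11, 4 to 8 and 3 to 10 with stage in p18mKO2-, against 9, 8 and 10; and 0 to 3, 0 to 2 and 0 with stage in p18mKO2+, against 0, 1 and 0. Eda2r lost its stage call in p18mKO2- tissue with no filter (-1.23, adjusted p = 0.0522) and with only the 6 libraries compared (-1.26, adjusted p = 0.0745). The TPM scale moved the median log2 fold change of all genes to 0.14 at E13.5 and 0.23 at E16.5. The cause of these changes was not tested. Changes of sign occurred only in gene-and-comparison pairs that were not called. With TPM, the p18 comparison at E13.5 gave Ccng1 0.16, Bax 0.09 and Sesn2 0.09, that at E16.5 Ccng1 0.20 and Trp53inp1 0.19, the difference Ccng1 0.04 and Phlda3 0.13, and the stage comparison in p18mKO2+ Trp53 0.04. With the ribosomal RNA covariate, Mdm2 (-0.01) and Bax (0.13) at E13.5, Perp (-0.25) at E16.5 and Trp53 (0.20) with stage in p18mKO2+ changed sign. With the Y-linked covariate, Sesn2 (0.12) at E13.5, Trp53inp1 (0.01) and Perp (-0.88) at E16.5 and Bax (-0.002) with stage in p18mKO2+ did. Without the 2 libraries with Xist beside Y-linked transcripts, Ccng1 (0.05) and Bax (-0.02) at E16.5, Ccng1 (0.12) in the difference, and Bax (-0.12) and Eda2r (0.09) with stage in p18mKO2+ did. Mdm2 at E13.5 was -0.002 with RLE and with DESeq2 and -0.01 with 6 libraries. Leaving out single libraries gave these ranges where the sign changed: at E13.5 Mdm2 -0.05 to 0.08, Ccng1 -0.20 to 0.07, Bax -0.25 to 0.12, Sesn2 -0.26 to 0.08, Eda2r -0.45 to 0.12 and Perp -1.53 to 0.41; at E16.5 Mdm2 -0.04 to 0.15, Ccng1 -0.15 to 0.05, Bax -0.02 to 0.30 and Perp -0.07 to 0.71; in the difference Mdm2 -0.04 to 0.14, Ccng1 -0.14 to 0.13, Phlda3 -0.49 to 0.14 and Perp -0.17 to 1.78; with stage in p18mKO2+ Trp53 -0.19 to 0.11, Mdm2 -0.07 to 0.0003, Bax -0.08 to 0.23 and Eda2r -0.17 to 0.04; and with stage in p18mKO2- Bax -0.34 to 0.03.

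Correlations of deviations from the group means ran from -0.01 to 0.15 over the 6 same-numbered pairs within a stage, against -0.12 to 0.10 over 12 other pairs. Over all groups they ran from -0.07 to 0.28 over 18 same-numbered pairs, the highest being replicate 3 of E16.5 p18mKO2- with replicate 3 of E13.5 p18mKO2+, against -0.21 to 0.10 over 36 others. Since not every same-numbered pair was over 0.1, an arbitrary limit, the numbers were not taken as a pairing in the main fit. Replicate 3 of E16.5 p18mKO2- also had 0.20 with replicate 3 of E13.5 p18mKO2- and 0.15 with that of E16.5 p18mKO2+. The latter 2 had 0.16 with each other. Replicate 3 of E13.5 p18mKO2+ had 0.03 with that of E13.5 p18mKO2- and 0 with that of E16.5 p18mKO2+. Whether libraries numbered 3 share a factor was not tested. With the replicate number as a block, 1, 0, 1, 5 and 0 p53 genes were called in the comparisons in the order given in the report, as without it, while all-gene calls were 2369, 0, 767, 5526 and 547 with the block, against 1810, 0, 453, 5005 and 275 without it. Depth limits Perp, with 4 to 92 estimated counts a library, and Eda2r, with 28 to 150.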
